A study of Mus musculus with 19 samples.

Results

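Rag1, Rag2 and Dntt are the genes of the machinery that cuts and diversifies antigen receptor genes, and they were followed here through the steps at which bone marrow progenitors turn towards innate lymphoid cells. The genes were taken by name, and they are 3 of the 18607 genes of the deposited table. RAG1 and RAG2 together form the recombinase that cuts DNA beside the V, D and J segments of antigen receptor genes. Dntt encodes terminal deoxynucleotidyl transferase (TdT), the polymerase that adds bases without a template at the joins. Multipotent and common lymphoid progenitors of the marrow are known to start transcribing all of them before any lineage is fixed, whereas innate lymphoid cells (ILC) are lymphocytes that work without rearranged antigen receptors.

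RNA was sequenced from 19 libraries of progenitors sorted from the marrow of C57BL/6 mice. ALP (7 libraries), the common lymphoid progenitors of the series, were sorted as lineage-low, Ly-6D-low cells with Kit, IL-7Ra and high Flt3, and came from Tcf7EGFP/+ mice, in which 1 Tcf7 allele carries a green reporter. EILP (7 libraries), early innate lymphoid progenitors, came from the same genotype and were gated on low lineage markers, Ly-6D and CD122, on Kit, on high GFP, and on low Thy-1.2 with intermediate to low IL-7Ra. ILCp (5 libraries), later ILC progenitors, shared the lineage, Ly-6D, CD122, Kit and high GFP gates but had Thy-1.2, high IL-7Ra and a4b7. ILCp 1, 2 and 3 were Tcf7EGFP/+, while ILCp 4 and ILCp 5 were Plzf-cre-GFP/+, so that GFP reported another gene in those libraries. Ages, pooling of animals and whether libraries came from separate mice are not given in the labels, so every p-value reflects library-to-library spread alone, which may be technical. The growth protocol speaks of marrow and thymus suspensions, and the tissue label of every library is bone marrow.

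Levels are deposited log2 CPM, the base 2 logarithm of reads scaled to a common library total (CPM). Differences between batches had been removed from the values with the 3 groups kept, so SDs within groups are too small. The same removal favours groups that do not overlap. How many of all genes do not overlap was not counted, so statements on overlap below only describe the values. Libraries carried 5 batch labels, of which batch 3 held EILP alone (EILP 3 and EILP 4) and batch 5 no ILCp. The ILCp libraries of batch 4 were of both genotypes: ILCp 3 (Tcf7EGFP/+), and ILCp 4 and ILCp 5 (Plzf-cre-GFP/+). The files hold no counts, so the depth of each library is unknown and no counting interval can be given. The ILC progenitor markers had summed levels of 417 to 808 CPM over 12 genes in ALP, 2860 to 12300 CPM in EILP and 5730 to 10100 CPM in ILCp. EILP and ILCp overlapped, and ALP lay below both. The list holds genes of the reporters (Tcf7 and Zbtb16) and of gated surface proteins (Il7r, Itga4 and Itgb7). The distance from ALP was thus in part set by the sorting. In EILP 7, the library with the highest EILP sum, Tcf7 was at 13.07 log2 CPM. Of the gate genes, Flt3 averaged 10.21 ± 0.69 log2 CPM (SD, n = 7) in ALP, and Il7r averaged 9.93 ± 0.37 log2 CPM (SD, n = 5) in ILCp against 5.34 ± 0.89 (SD, n = 7) in EILP. Tcf7 was at 1.06 ± 2.64 log2 CPM (SD, n = 7) in ALP and at 10.51 ± 1.85 (SD, n = 7) in EILP.

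Rag1 and Rag2 lie side by side on mouse chromosome 2 and point towards each other. In the GENCODE annotation of GRCm38, Rag1 spans chr2:101638282-101649501 on the minus strand with 6608 exonic bases, and Rag2 spans chr2:101624718-101632529 on the plus strand with 3424 exonic bases. Dntt spans chr19:41029275-41059525 on the plus strand with 2292 exonic bases. Because the 3 genes were all lower after the ALP stage, the 250 bases before each start are shown from the RefSeq promoter table (GRCm38.p6), read 5′ to 3′ on the strand of the gene. The windows are chr2:101649533-101649782 on the minus strand for Rag1, chr2:101624462-101624711 on the plus strand for Rag2 and chr19:41029025-41029274 on the plus strand for Dntt. Capitals mark matches, on either strand, to the E-box CANNTG, the Ikaros core GGGAA and the Runx motif TGTGGT.
Rag1: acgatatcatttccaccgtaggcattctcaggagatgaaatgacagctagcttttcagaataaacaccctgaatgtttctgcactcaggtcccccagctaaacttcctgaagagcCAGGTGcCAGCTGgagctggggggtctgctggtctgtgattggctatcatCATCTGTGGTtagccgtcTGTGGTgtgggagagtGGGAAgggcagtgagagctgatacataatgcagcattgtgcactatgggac
Rag2: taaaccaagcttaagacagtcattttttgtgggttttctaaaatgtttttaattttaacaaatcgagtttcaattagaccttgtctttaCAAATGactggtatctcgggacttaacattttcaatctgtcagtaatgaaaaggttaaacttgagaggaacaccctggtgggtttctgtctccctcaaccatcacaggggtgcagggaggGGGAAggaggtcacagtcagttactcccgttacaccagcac
Dntt: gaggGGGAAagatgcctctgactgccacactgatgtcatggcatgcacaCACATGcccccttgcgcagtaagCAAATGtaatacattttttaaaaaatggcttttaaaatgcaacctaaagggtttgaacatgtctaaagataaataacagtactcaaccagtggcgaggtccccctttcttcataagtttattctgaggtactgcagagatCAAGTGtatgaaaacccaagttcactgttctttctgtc

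The Ikaros core occurred 1 time in each window, and 55.9% of the 27025 RefSeq promoter windows of this length hold it. E-boxes, the sites that E proteins such as the Tcf3 products bind, occurred 3 times in the Rag1 window, 1 time in the Rag2 window and 3 times in the Dntt window, against 66.0% of all windows with at least 1. The Runx motif occurred 2 times before Rag1 and in neither of the other windows, and 14.2% of all windows hold it. The E-box nearest to the Rag1 start overlaps a Runx match, which gives the long run of capitals there. The letters TATAAA, searched in the same way, are in none of the 3 windows and in 13.0% of all windows. These matches describe the letters of the windows only.

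Dntt had the highest level of the 3 genes, in log2 CPM, in every library. In ALP it was at 11.65, 12.12, 12.12, 13.05, 12.97, 12.07 and 12.69 log2 CPM in ALP 1 to 7. It ranked between 1 and 5 of the 18607 genes in each ALP library, with a median level of 4440 CPM. In EILP 1 to 7 it was at 7.64, 7.38, 7.74, 7.50, 8.44, 7.0 and 7.65 log2 CPM. In ILCp 1 to 5 it was at 8.04, 8.10, 8.58, 8.48 and 3.45 log2 CPM. Every EILP and ILCp library lay below every ALP library, and ILCp 5 lay far below the other 4 ILCp libraries. Dntt transcripts were still plentiful after the drop, with medians of 199 CPM in EILP and 275 CPM in ILCp and median ranks of 1071 and 672. The group means were 12.38 ± 0.53 log2 CPM (SD, n = 7) in ALP, 7.62 ± 0.44 (SD, n = 7) in EILP and 7.33 ± 2.18 (SD, n = 5) in ILCp.

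Rag2, the partner subunit whose protein reads a histone mark of active chromatin, was at 9.64, 6.91, 7.32, 6.82, 6.72, 4.85 and 4.76 log2 CPM in ALP 1 to 7. In EILP 1 to 7 it was at −1.61, −4.38, 0.081, −0.36, 1.74, 1.72 and 1.82 log2 CPM. In ILCp 1 to 5 it was at 0.28, 5.18, 1.60, 0.95 and 0.67 log2 CPM. The ALP and EILP values did not overlap, whereas ILCp 2 lay inside the ALP range and above every EILP library. The means were 6.72 ± 1.65 log2 CPM (SD, n = 7) in ALP, −0.14 ± 2.28 (SD, n = 7) in EILP and 1.74 ± 1.98 (SD, n = 5) in ILCp. Its median level was 113 CPM in ALP, 1.06 CPM in EILP and 1.93 CPM in ILCp.

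Rag1, which holds the catalytic site of the recombinase, was at 4.29, 3.42, 5.06, 4.05, 4.30, −1.54 and 2.94 log2 CPM in ALP 1 to 7. In EILP 1 to 7 it was at −6.35, −4.18, −3.83, −3.83, −4.91, −5.53 and 1.82 log2 CPM. In ILCp 1 to 5 it was at −1.05, −4.18, −4.91, −2.42 and 0.097 log2 CPM. EILP 7 stood above the other 6 EILP libraries and above ALP 6, the lowest ALP library. The means were 3.22 ± 2.20 log2 CPM (SD, n = 7) in ALP, −3.83 ± 2.66 (SD, n = 7) in EILP and −2.49 ± 2.09 (SD, n = 5) in ILCp.

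Many of the low Rag1 values stand for no reads. Over 4605 genes that were at a zero level in at least 1 library of every batch, the mean of the 5 batch zero levels was −4.96 log2 CPM (tolerance 1e-05), which made it possible to tell which Rag1 values were zeros before batch was removed. Rag1 was above zero in 7 of 7 ALP, 1 of 7 EILP and 3 of 5 ILCp libraries. The EILP library was EILP 7, and the ILCp libraries were ILCp 1, 4 and 5. Before the removal of batch the ALP levels were 5.68, 2.64, 4.28, 4.00, 4.87, −0.97 and 3.51 log2 CPM in ALP 1 to 7, EILP 7 was at 2.39 log2 CPM, and ILCp 1, 4 and 5 were at 0.34, −2.47 and 0.046 log2 CPM. Of these 11 levels, 9 equalled a level of another gene within 1e-06. Shares of the 4605 genes at zero were 89.7% in EILP 1 and 76.6% in ALP 1, both of batch 1. In batch 2 they were 89.8% in EILP 2 against 80.8% in ALP 2 and 86.8% in ALP 3. In batch 4 they were 65.3% in EILP 5 and 63.4% in ALP 4. In batch 5 they were 86.3% and 88.0% in EILP 6 and 7, against 84.3%, 73.1% and 90.2% in ALP 5 to 7. The part of these shares in the Rag1 zeros was not tested. The zero status of the low Rag2 and Dntt values could not be resolved in this way.

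**Figure D1:**
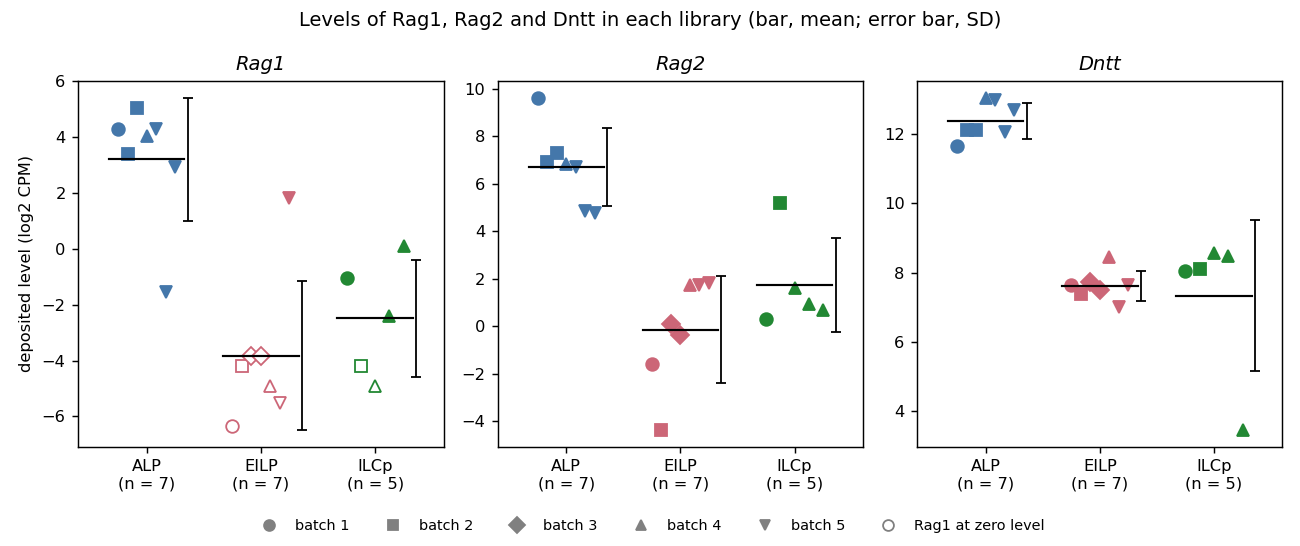
Deposited levels of Rag1, Rag2 and Dntt in log2 CPM (vertical axis, a separate scale for each gene) in the 7 ALP, 7 EILP and 5 ILCp libraries; each point is a library, its shape the batch, open points are Rag1 zeros, and lines and bars are group means and SDs. The ALP points lie above all EILP points for Rag2 and Dntt, and ILCp 5 lies at 3.45 for Dntt below the other ILCp points.

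Per kilobase of exon, the order of the 3 genes was Dntt, Rag2, Rag1 in the median of each group. In ALP the medians were 1940, 33.1 and 2.50 CPM per kb. In EILP they were 86.9, 0.309 and 0.00834 CPM per kb, and in ILCp 120, 0.565 and 0.0283 CPM per kb. The Rag1 median in EILP is the value of EILP 2, where Rag1 was at zero, so it is no measured level. The ranges of Dntt and Rag2 did not overlap in ALP (1400 to 3700 against 7.89 to 233 CPM per kb) or in EILP (55.9 to 151 against 0.014 to 1.03 CPM per kb). In ILCp they did overlap (4.78 to 167 against 0.356 to 10.6 CPM per kb). Rag2 and Rag1 did not overlap in ALP, where Rag1 ranged from 0.052 to 5.04 CPM per kb.

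The first comparison asked how the genes differ between early innate lymphoid progenitors and common lymphoid progenitors. All 3 were lower in EILP than in ALP. Dntt fell by 4.76 ± 0.70 on the log2 scale (SE, limma with batch, adjusted p = 0.000545), Rag2 fell by 6.86 ± 1.23 (adjusted p = 0.00274) and Rag1 fell by 7.04 ± 1.53 (adjusted p = 0.0111). Of all 18607 genes, 520 (2.79%) were lower in EILP and 419 (2.25%) were higher by the same rule. In bulk RNA, fewer cells with transcripts and less RNA per cell cannot be told apart. The exact permutation test within batches (two-sided, 12 libraries in batches with both groups) gave p = 0.008333 for Rag2 and Dntt, the smallest of its 120 arrangements, and p = 0.01667 for Rag1.

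The drop was seen in each of the 4 batches that held both groups. For Dntt, EILP minus ALP was −4.01, −4.74, −4.61 and −5.25 log2 in batches 1, 2, 4 and 5. For Rag2 it was −11.24, −11.49, −5.08 and −3.67, and for Rag1 −10.64, −8.42, −8.96 and −3.75. The Dntt differences lay close together, while those of both Rag genes were smallest in batch 5. Fitted alone, batch 5 left both Rag genes past no threshold (adjusted p = 0.818 for Rag1 and 0.238 for Rag2), whereas Dntt passed. Rag1 also missed it when only ALP and EILP libraries entered the model (adjusted p = 0.0541), and its change shrank to −3.12 with a pseudocount of 1 CPM, which lifts the zeros.

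The second comparison followed the genes from EILP to ILCp, and none of the 3 passed the test. The differences were 1.34 ± 1.81 log2 for Rag1 (SE, limma, adjusted p = 0.774), 1.88 ± 1.45 for Rag2 (adjusted p = 0.567) and −0.29 ± 0.83 for Dntt (adjusted p = 0.909). Their unadjusted p-values were 0.471, 0.216 and 0.730, and the groups overlapped for each gene. Among all genes, 271 (1.46%) were lower and 327 (1.76%) higher in ILCp. The exact permutation test within batches gave p = 0.375, 0.4375 and 1.0 for Rag1, Rag2 and Dntt, and 16 arrangements allow no p below 0.0625. Within batches 1, 2 and 4, ILCp minus EILP was 5.30, 0.0 and 2.50 log2 for Rag1, 1.89, 9.56 and −0.67 for Rag2, and 0.41, 0.73 and −1.60 for Dntt. The Dntt difference turned positive without ILCp 5 (0.53) and without EILP 5 (0.18).

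The third comparison, ILCp against ALP, shares its libraries with the other comparisons. Dntt fell by 5.05 ± 0.80 on the log2 scale (SE, limma, adjusted p = 0.000807) and Rag2 fell by 4.98 ± 1.40 (adjusted p = 0.0384). The Rag1 difference was −5.71 ± 1.75 with an adjusted p of 0.0566, which missed the threshold of 0.05. Lower in ILCp were 816 of all genes (4.39%), and 718 (3.86%) were higher. The exact permutation test within batches gave p = 0.04167, the smallest its 24 arrangements allow, for each gene. Within batches 1, 2 and 4, ILCp minus ALP was −3.61, −4.01 and −6.21 log2 for Dntt, −9.35, −1.94 and −5.75 for Rag2, and −5.34, −8.42 and −6.46 for Rag1.

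The calls of both Rag genes in ILCp against ALP turned on single libraries. Rag1 passed without ALP 6, without EILP 1 or without EILP 7, with differences of −6.50 to −5.93 log2. Rag2 no longer passed without any 1 of ALP 1 to 5, EILP 3 to 5 or ILCp 1, 3, 4 and 5, with differences of −4.98 to −3.89. Dntt passed without each of the 19 libraries in turn, with differences of −5.49 to −4.26, but not when ILCp and ALP libraries alone entered the model (−4.77, adjusted p = 0.0623).

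**Figure D2:**
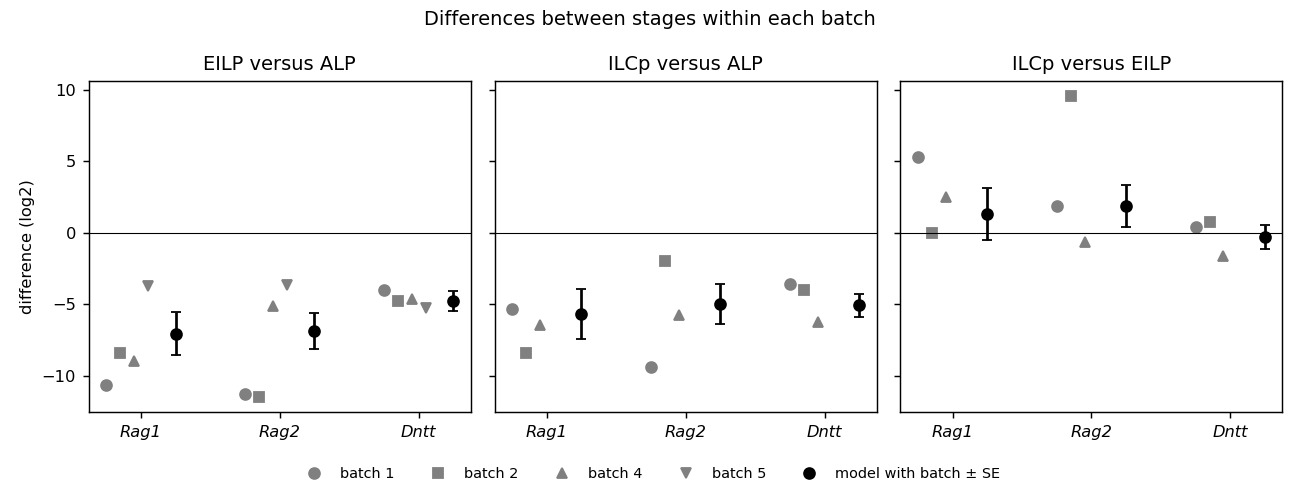
Differences in log2 level between stages (vertical axis) for each gene within each batch that holds both groups (grey, shape by batch) and from the model with batch (black, bars 1 SE). All EILP minus ALP and ILCp minus ALP values lie below 0, from −11.49 to −1.94, and the ILCp minus EILP values lie on both sides of 0.

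No test told the sizes of the 3 changes apart. The difference between the Rag1 and Rag2 changes from ALP to EILP was 0.11 log2 (exact permutation within batches, two-sided, p = 0.95, adjusted p = 0.95 over 9 tests). Over the alternatives run it lay between −0.98 and 2.37. Rag1 was at zero in 6 of 7 EILP and 2 of 5 ILCp libraries. The sizes of its changes therefore depend on the floor, and tests that hold Rag1 cannot show equal falls. The Rag1 change minus the Dntt change was −2.14 (p = 0.2917, exact permutation, adjusted p = 0.825), and the Rag2 change minus the Dntt change was −2.25 (p = 0.25, exact permutation, adjusted p = 0.825). In the other 6 tests, over ILCp against EILP and ILCp against ALP, the adjusted p was between 0.825 and 0.95. Those over ILCp against EILP have 16 arrangements and no p below 0.0625, so they could not pass whatever the values. Those over ILCp against ALP have 24 and no p below 0.04167 before adjustment, so they say little either way. Within a group, no relation between the genes across libraries passed a test. Over the 7 ALP libraries Rag1 and Rag2 had Pearson's r = 0.634 (exact permutation p = 0.16, adjusted p = 0.842) and Spearman's rho = 0.643 (exact permutation p = 0.139, adjusted p = 0.671), and r was 0.187 without the 2 libraries farthest from the Rag1 median. The 5 other relations, within ALP or within EILP, had r from −0.441 to 0.306 and adjusted p of at least 0.671.

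Within ILCp, the 2 reporter genotypes were set against each other with batch in the model. Both Plzf-cre-GFP/+ libraries were in batch 4, where ILCp 3 was the only Tcf7EGFP/+ library of ILCp. Dntt differed by −2.86 ± 1.01 log2 (2 Plzf-cre-GFP/+ minus 3 Tcf7EGFP/+ libraries, SE, limma, unadjusted p = 0.0132, adjusted p = 1), Rag1 differed by 2.79 ± 2.66 and Rag2 by −1.94 ± 2.15 (both adjusted p = 1). None of the 3 passed, against 14 of all genes (0.0752%). The Dntt value of ILCp 4 (8.48 log2 CPM), from the Plzf-cre-GFP/+ strain, lay within the Tcf7EGFP/+ range, and only ILCp 5 (3.45) lay below it.

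The genes that varied most like Dntt were picked next, and the low Dntt value of ILCp 5 enters that choice. After removal of group and batch, the highest Pearson r with Dntt over the 19 libraries, among 9303 genes above the median level, were those of Cd34 (0.981), Flt3 (0.978) and Il12a (0.971). Cd34, a surface sialomucin of stem and progenitor cells, was at 1.77 log2 CPM in ILCp 5 and at 7.01 to 8.35 in ILCp 1 to 4. Flt3, the cytokine receptor on which ALP were gated, was at −3.47 log2 CPM in ILCp 5 and at 3.90 to 6.01 in ILCp 1 to 4. Il7r, the receptor chain used in the ILCp gate, was at 10.35 log2 CPM there, above the 9.44 to 10.16 of the other ILCp libraries. These correlations describe 19 libraries of shared batches and share the ILCp 5 point. Cd34 and Flt3 were picked by them, so their low values in ILCp 5 are no separate observation.

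**Figure D3:**
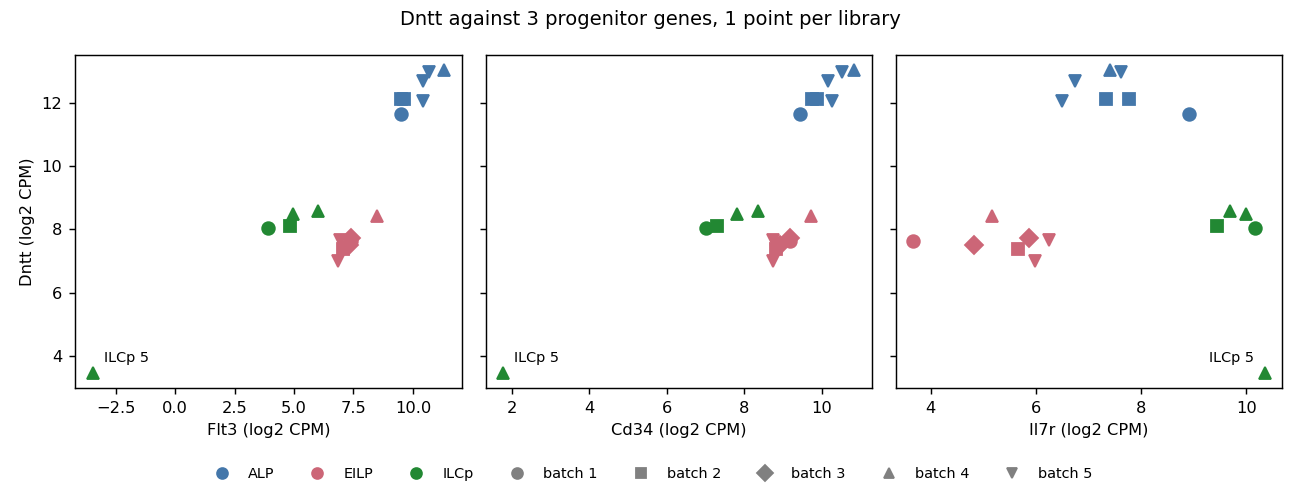
Dntt level (vertical axis, log2 CPM) against Flt3, Cd34 and Il7r levels (horizontal axes, log2 CPM), 1 point per library, coloured by group and shaped by batch. ILCp 5 is low for Dntt (3.45), Flt3 (−3.47) and Cd34 (1.77) and high for Il7r (10.35).

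On the values as deposited, the genes with the pattern most like Dntt were Eltd1 (r = 0.958), Egfl7 (0.940), Sstr2 (0.936), Cd93 (0.936) and Maml3 (0.927). Those most like Rag2 were Desi1 (0.911), Notch1 (0.896), Cd69 (0.891), Arl11 (0.887) and Eya1 (0.886), and those most like Rag1 were Cd81 (0.903), Plcg1 (0.900), Kctd10 (0.879), Tcf7l2 (0.873) and Cyth4 (0.863). After removal of group and batch, Nmrk1 (0.929), Decr2 (0.892) and Eya1 (0.891) were most like Rag2, and Dok2 (0.911), Coro1a (0.866) and Sh3bp1 (0.851) most like Rag1. No gene was among the nearest of more than 1 of the 3. Each r is a description over 19 libraries that share batches and group differences.

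Cutting is followed by joining, and most of the joining and repair partners did not pass the test. Of 18 measured partners of a list of 19, 1 was higher, 3 were lower and 14 did not pass in EILP against ALP, with a median of −0.15 log2 against 0 over all genes. Of all genes, 2.25% were higher and 2.79% lower in EILP. In ILCp against ALP the partner counts were 1, 3 and 14 (median 0.15 against −0.034 over all genes). There 3.86% of all genes were higher and 4.39% lower. In ILCp against EILP no partner passed limma's adjusted threshold, against 1.76% of all genes higher and 1.46% lower. At an unadjusted p under 0.05, 2 partners were higher and 0 lower (median 0.065 against −0.078). The gene lists here and below were chosen with earlier results of these data known, so the shares only describe. Xrcc6, which encodes the Ku70 subunit of the end-binding Ku dimer, fell by 2.12 ± 0.20 on the log2 scale in EILP (SE, limma, adjusted p = 8.06e-06) and fell by 2.51 ± 0.23 in ILCp (adjusted p = 3.81e-06). Its levels were 8.51 to 9.26 log2 CPM in ALP, 6.19 to 7.19 in EILP and 5.91 to 6.54 in ILCp, with no overlap between ALP and the others. Xrcc5, the Ku80 partner, differed by 0.02 ± 0.22 in EILP (adjusted p = 1). Desi1, the gene most like Rag2, shares 344 exonic bases (7.69%) of Xrcc6 on the opposite strand, and the library kits do not mark strand.

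Hmgb1 and Hmgb2, whose DNA-bending proteins help the recombinase bind its signals, were the other lower partners. Hmgb1 fell by 0.43 ± 0.06 on the log2 scale in EILP (SE, limma, adjusted p = 0.000307) and fell by 0.49 ± 0.07 in ILCp (adjusted p = 0.000239). Hmgb2 fell by 0.71 ± 0.14 in EILP (adjusted p = 0.00565) and fell by 0.65 ± 0.16 in ILCp (adjusted p = 0.0192). With each library centred on its median gene, neither passed in EILP (adjusted p = 0.129 and 0.0534), and Hmgb2 did not pass in ILCp (0.0689). The Hmgb2 call in ILCp was also lost without ALP 4 (−0.62, adjusted p = 0.0847) or ILCp 2 (−0.51, 0.152). Dclre1c (the hairpin-opening nuclease Artemis), Prkdc (the kinase that activates it), Lig4 and Xrcc4 (the ligase and its cofactor) did not pass in any of the 3 comparisons.

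Polm ran opposite to Dntt. It encodes DNA polymerase mu, the closest relative of TdT, which fills gaps at broken ends. In ALP 1 to 7 it was at −4.78, 1.29, −5.99, 0.76, −3.77, −3.77 and −3.77 log2 CPM. In EILP 1 to 7 it was at 5.52, 2.41, 5.00, 3.91, 2.70, 6.48 and 5.15 log2 CPM, and in ILCp 1 to 5 at 4.77, 4.93, 3.64, 3.05 and 3.20. Every EILP and ILCp library lay above every ALP library. Polm rose by 7.32 ± 1.26 log2 in EILP (SE, limma, adjusted p = 0.00210) and by 6.78 ± 1.44 in ILCp against ALP (adjusted p = 0.00743). Most ALP levels lay near the floor, so the size of the rise is uncertain. Over the alternatives run, the difference went down to 4.07 in EILP and 3.94 in ILCp. With only batches holding both groups, Polm missed the threshold in EILP (7.26, limma adjusted p = 0.0566) and in ILCp (6.02, 0.187). In ILCp it also missed it with only the groups compared (6.02, 0.105). Within batches 1, 2, 4 and 5, EILP minus ALP was 10.31, 4.76, 1.95 and 9.59 log2. Per kilobase of exon the Polm medians were 0.02 CPM in ALP, 8.73 CPM in EILP and 3.40 CPM in ILCp, against 86.9 CPM per kb of Dntt in EILP. Without ALP 6, EILP 7, ILCp 2 and ILCp 5, the libraries in which a recombinase gene stood apart, the Polm differences were 6.92 (adjusted p = 0.0585) and 6.19 (adjusted p = 0.186), and without ILCp 2 alone the ILCp difference was 6.21 (adjusted p = 0.0585). Poll, the other related gap-filling polymerase, differed by −0.77 ± 0.54 log2 in EILP (adjusted p = 0.499) and by −1.47 ± 0.61 in ILCp (adjusted p = 0.172). Without the same 4 libraries 0 partners were higher and 2 lower in each of the comparisons with ALP. Counts of all genes without these libraries are given in the last section.

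**Figure D4:**
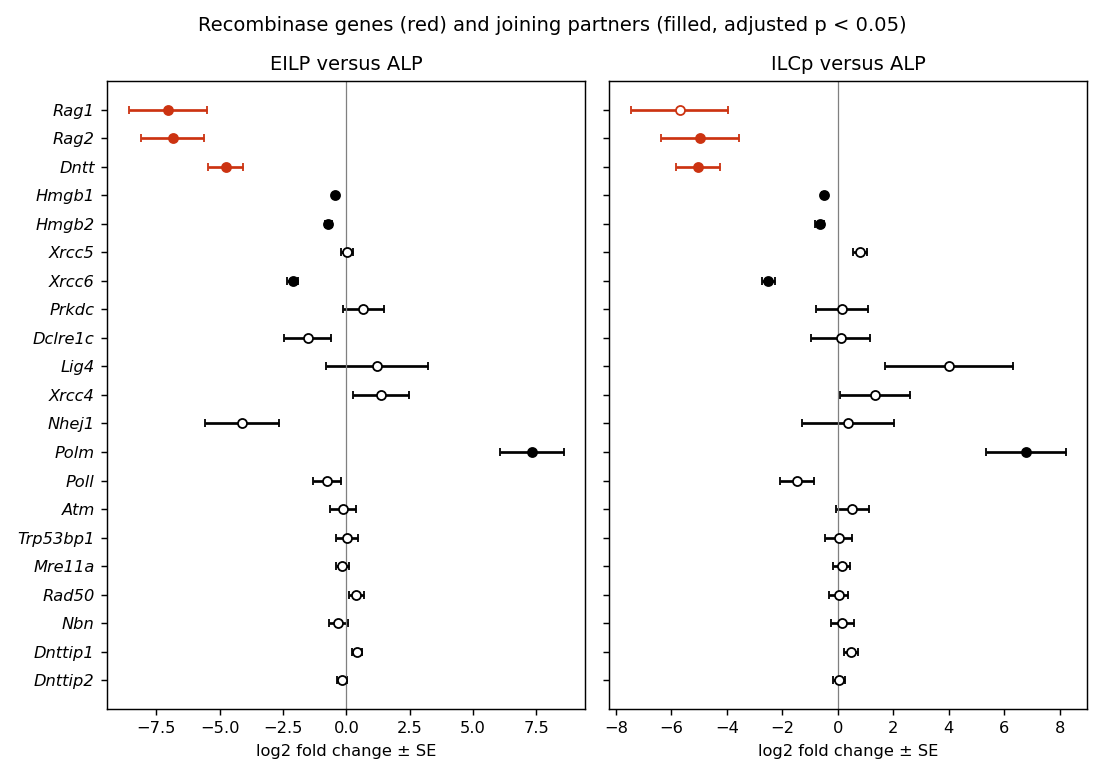
Log2 fold change ± SE (horizontal axes) of Rag1, Rag2 and Dntt (red) and of 18 joining and repair partners (black) in EILP and in ILCp against ALP; filled points passed the adjusted threshold. Most partners lie near 0, Xrcc6 lies at −2.12 and −2.51, and Polm at 7.32 and 6.78.

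Transcription factors that are known to act on the Rag or Dntt genes, or on the programmes around them, moved in both directions. Of 32 factors, 7 were higher, 7 lower and 18 did not pass in EILP against ALP (median −0.35 log2 against 0 over all genes). In ILCp against ALP 6 were higher and 11 lower (median −0.60 against −0.034), and in ILCp against EILP 4 were higher and 3 lower (median −0.043 against −0.078). Of all genes, 2.25% were higher and 2.79% lower in EILP against ALP. The shares were 3.86% and 4.39% in ILCp against ALP, and 1.76% and 1.46% in ILCp against EILP. The higher factors with the smallest adjusted p in EILP were Id2 (4.58 ± 0.23 log2, limma adjusted p = 1.09e-08), whose protein blocks E proteins, and Lef1 (9.83 ± 0.56, 4.21e-08), a relative of Tcf7. The lower ones were Tcf4 (−1.76 ± 0.20, 4.85e-05), an E protein gene, and Foxp1 (−0.94 ± 0.14, 0.000461), a forkhead factor needed for Rag expression in B cell precursors. In ILCp against ALP, Id2 (6.11 ± 0.27) and Gata3 (8.51 ± 0.44), a factor of T cells and ILC, were higher, and Mef2c (−2.80 ± 0.31) and Bcl11a (−2.47 ± 0.32), both factors of early lymphoid progenitors, were lower. In ILCp against EILP, where no recombinase gene passed, Ets1 (4.81 ± 0.44, adjusted p = 1.97e-05) and Gata3 (2.96 ± 0.46, 0.00249) were higher, and Nfkb1 (−1.57 ± 0.23, 0.00163) and Spi1 (−2.52 ± 0.54, 0.0192) lower. The Spi1 call was lost without EILP 2 (−2.22, adjusted p = 0.0650), EILP 5 (−2.76, 0.0627) or ILCp 2 (−1.78, 0.0866), and without ALP 6, EILP 7, ILCp 2 and ILCp 5 together neither Spi1 (−1.31, 0.0576) nor Gata3 (2.69, 0.0563) passed.

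The activators of Rag transcription in B cell precursors differed among themselves. Tcf3, the E2A gene, differed by 0.29 ± 0.12 log2 in EILP against ALP (SE, limma, adjusted p = 0.230), and Ikzf1, the Ikaros gene, by −0.37 ± 0.11 (adjusted p = 0.0752). Foxo1 was at 1.61 to 7.59 log2 CPM in ALP, −3.24 to 4.50 in EILP and 5.42 to 7.48 in ILCp. Its differences were −4.37 ± 1.37 in EILP against ALP (adjusted p = 0.0875) and 5.76 ± 1.62 in ILCp against EILP (adjusted p = 0.0684), neither past the threshold. Ebf1, the early B cell factor, fell by 5.66 ± 1.55 on the log2 scale in EILP (adjusted p = 0.0456) and fell by 7.20 ± 1.77 in ILCp against ALP (adjusted p = 0.0180). It was at zero in 1 of 7 ALP, 5 of 7 EILP and 5 of 5 ILCp libraries. The EILP call was lost without ALP 1, 3, 4, 5 or 7, without EILP 1 to 5 or 7, or without ILCp 1, 3, 4 or 5, with differences of −5.88 to −4.59, and the ILCp call without ALP 1 (−5.91), ALP 4 (−6.83) or ILCp 1 (−6.72). Without ALP 6, EILP 7, ILCp 2 and ILCp 5, 5 factors were higher and 6 lower in EILP against ALP, 6 and 4 in ILCp against ALP, and 1 and 1 in ILCp against EILP. The last section gives the counts of all genes without these libraries.

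**Figure D5:**
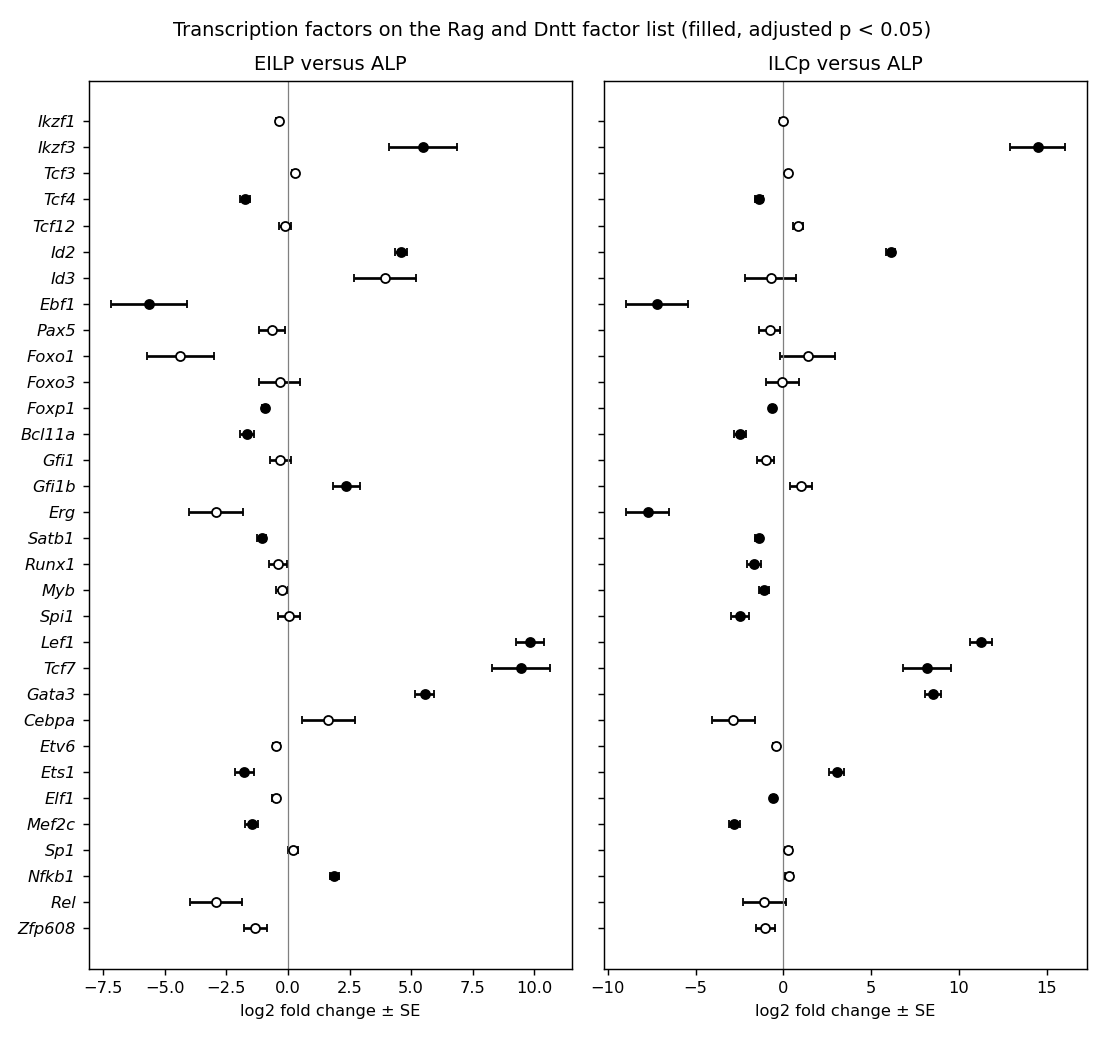
Log2 fold change ± SE (horizontal axes) of the 32 transcription factors in EILP and in ILCp against ALP; filled points passed the adjusted threshold. Lef1 (9.83) and Id2 (4.58) lie to the right, Tcf4 (−1.76) and Ebf1 (−5.66) to the left, and Tcf3 and Ikzf1 near 0.

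Genes of early lymphoid and B cell priming, which are usually read together with Rag and Dntt, were in part lower as well. Of 20 genes, 0 were higher, 9 lower and 11 did not pass in EILP against ALP, with a median of −1.99 log2 against 0 over all genes. In ILCp against ALP 1 was higher and 9 lower (median −1.97 against −0.034), and in ILCp against EILP 2 were higher and 1 lower (median −0.14 against −0.078). Of all genes, 2.25% were higher and 2.79% lower in EILP against ALP. The shares were 3.86% and 4.39% in ILCp against ALP, and 1.76% and 1.46% in ILCp against EILP. Ighm, the mu heavy chain locus, which is transcribed before it is rearranged, fell by 1.87 ± 0.17 on the log2 scale in EILP (SE, limma, adjusted p = 6.01e-06) and fell by 1.53 ± 0.20 in ILCp against ALP (adjusted p = 0.000132). Cd93, a surface lectin-like receptor of early progenitors, fell by 1.59 ± 0.22 in EILP (adjusted p = 0.000257) and fell by 1.97 ± 0.25 in ILCp (adjusted p = 8.72e-05). The higher gene in ILCp against ALP was Il7r (2.46 ± 0.52, adjusted p = 0.00694), which the gates used. Against EILP, Il7r (4.58 ± 0.54, adjusted p = 0.000283) and the chemokine receptor gene Ccr7 (2.4 ± 0.58, adjusted p = 0.0344) were higher in ILCp and Mn1 (−2.05 ± 0.50, adjusted p = 0.0380) lower. The Ccr7 call was lost without EILP 1, 5 or 7 or without any 1 of the ILCp libraries, with differences of 1.58 (without EILP 5, adjusted p = 0.208) to 2.61. Mn1 missed the threshold when any 1 of ALP 2, ALP 4, EILP 1, EILP 3, EILP 4, EILP 5, EILP 7, ILCp 1, ILCp 3 and ILCp 5 was left out, with differences of −2.06 to −1.65 (without EILP 5, adjusted p = 0.196). Without ALP 6, EILP 7, ILCp 2 and ILCp 5, 8 were lower in EILP and 6 in ILCp against ALP, with none higher. For all genes, the counts without these libraries are in the last section.

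Markers of other cells that could lie in the gates were read beside the recombinase genes. Of 12 B lineage markers 11 were measured, and their summed level was 132 to 329 CPM in ALP, 55.2 to 107 CPM in EILP and 27.1 to 70.3 CPM in ILCp, so that it was lower in the groups in which Rag1, Rag2 and Dntt were lower. Among them, Pax5 and Pou2af1 were at zero in all EILP libraries, and Pax5 and Ebf1 in all ILCp libraries. In ALP, Pax5 and Pou2af1 were likewise at zero in 6 of 7 libraries each, and Ebf1 in 1 of 7. Single B lineage markers did not all follow the sum. Igll1 averaged −4.10 log2 CPM in ALP and −3.52 in EILP, and Cd22 −2.18 and −1.95. Vpreb3 averaged −1.54 log2 CPM in ALP and −1.42 in ILCp, and Pou2af1 −3.30 in both. Cd79a, Cd79b, Ebf1, Vpreb1 and Blnk averaged lower in EILP and in ILCp than in ALP. The sum over 11 of 12 markers of plasmacytoid dendritic cells, a cell type known to carry Rag and Dntt transcripts, was 949 to 2110 CPM in ALP, 604 to 938 CPM in EILP and 182 to 366 CPM in ILCp. Irf8 had the highest mean of these dendritic cell markers in each group, at 9.84 log2 CPM in ALP, 9.15 in EILP and 6.97 in ILCp. Spib (−2.29, 0.76 and 0.10) and Pacsin1 (0.83, 1.58 and 1.96) averaged higher in EILP and ILCp than in ALP. Cd209d averaged −4.77 log2 CPM in ALP, −3.48 in EILP and −5.53 in ILCp. The other measured dendritic cell markers averaged lower in EILP and in ILCp than in ALP. The part of the B lineage and dendritic cell lists in the recombinase values was not tested. The sum over 11 of 12 thymocyte and T cell markers was 194 to 430 CPM in ALP, 212 to 390 CPM in EILP and 276 to 737 CPM in ILCp. Single markers of this list went both ways. Cd3d, Cd3e and Cd8b1 were at zero in all ALP libraries, and Cd4 in all EILP libraries. In ALP, Cd4 was at zero in 2 of 7 libraries and Cd5 in 1 of 7. Cd6 averaged 4.67 log2 CPM in ALP and 1.91 in EILP. Granulocyte and monocyte markers (10 of 10) summed to 590 to 6410 CPM in ALP, 1680 to 42100 CPM in EILP and 135 to 1970 CPM in ILCp, with the highest sum in EILP 2, the library with the lowest Rag2. Erythroid and megakaryocyte markers (8 of 8) summed to 2.91 to 81.1 CPM, 62.2 to 475 CPM and 43.1 to 554 CPM in the same order, with the highest sum in ILCp 2, the ILCp library with the highest Rag2. The part of these cells was not tested.

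None of the other nearest measured genes on either side of Rag1 and Rag2 passed the test. Traf6, on one side, differed by −0.45 ± 0.22 log2 in EILP against ALP (SE, limma, adjusted p = 0.299), and B230118H07Rik, on the other, by 0.55 ± 0.42 (adjusted p = 0.538). B230118H07Rik shares 80 exonic bases (1.21%) with Rag1 on the same strand and 208 (6.07%) with Rag2 on the opposite strand, and how reads there were assigned is not given in the sources used here. Its level averaged 4.38 log2 CPM in ALP, 4.93 in EILP and 4.74 in ILCp. Prr5l and Gm13803 also did not pass in any comparison. Gm13803 lies far from Rag2, at chr2:97947953-97949756, and averaged −2.66 log2 CPM in ALP, −1.77 in EILP and −2.17 in ILCp. Next to Dntt, Blnk, a linker protein gene of B cell receptor signalling, fell by 7.40 ± 1.75 on the log2 scale in EILP (adjusted p = 0.0195) and fell by 9.03 ± 2.00 in ILCp against ALP (adjusted p = 0.00949). It was at zero in 0 of 7 ALP, 4 of 7 EILP and 3 of 5 ILCp libraries. Pik3ap1, on the other side of Dntt, fell by 2.92 ± 0.47 in ILCp against ALP (adjusted p = 0.000944) and differed by −1.23 ± 0.41 in EILP (adjusted p = 0.112), while Zfp518a and Tm9sf3 did not pass in any comparison.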

How the data were processed

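Per the labels' protocols, RNA of sorted marrow progenitors was purified (RNeasy plus micro), amplified with the SMARTer Ultra Low Input kit and tagged with Nextera XT, neither of which marks strand. The submitters' processing notes name bcl2fastq 1.8.4, STAR 2.4.0h, edgeR, limma and mm10, without role or order, and how reads were counted is not stated. Values deposited by the authors are log2 CPM (18607 genes, 19 libraries). The table has 9 empty columns, and 0 sample columns went unused. From the values, batch had been removed with groups kept, since the largest batch coefficient beside the groups was 1.84e-08, against a largest difference of batch means of 6.01 without them. Back on the linear scale, the CPM of a library summed to between 908573 and 1035204. Depth is unknown.

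Libraries were grouped by title. The main model, over all genes, was limma 3.58.1 under R 4.3.3 (two-sided, mean-variance trend, group and batch as fixed effects, 19 libraries, 12 residual degrees of freedom) with Benjamini-Hochberg adjusted p below 0.05. Single genes and pairs of genes were compared by exact permutation within batches in Python 3.11.15 with scipy 1.17.1. Tested on simulated data (5 draws, 200 of 18607 genes changed), the EILP against ALP model recovered 13.6%, 31.2%, 72.4% and 88% at log2 changes of 1, 2, 4 and 7. The alternatives were other batch terms, subsets of libraries, each library left out, quantile and median scaling, a pseudocount of 1 CPM, a level filter, limma without trend or with robust variance, and a test against a 2-fold change. One more, without the 4 libraries in which a member stood apart, was chosen after seeing the data.

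Genes named were the 3 members, up to 2 higher and 2 lower genes of each list with the smallest adjusted p, 12 fixed partners and factors, the genes most correlated with each member and the nearest neighbours in the RefSeq table. Xrcc5, Cd34, Flt3 and Il7r in single libraries, Tcf7, and single markers of the cell lists were added after their values were seen. The members and lists were chosen with earlier results of these data known. Exon lengths are from GENCODE M21. Paxx was not measured. The value of 1 marker gene is not reported here. Title numbers are shared between groups but cross batches, and deviations of same-numbered libraries correlated from −0.567 to 0.049, so the numbers were not taken as pairs.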

Additional observations from a re-analysis of the deposited data

Results flagged for a closer look

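Each of the 3 genes was checked in each group for a library far from the others by Dixon's test, and 4 of the 9 groups of libraries held one. The test assumes normally distributed values, which levels at or near zero are not, so no chance rate is set beside this count. Rag1 in ALP 6 was at −1.54 log2 CPM, and the next ALP library was at 2.94. Rag1 in EILP 7 was at 1.82 log2 CPM, while the 6 other EILP libraries were at zero. Rag2 in ILCp 2 was at 5.18 log2 CPM, and the next ILCp library was at 1.60. Dntt in ILCp 5 was at 3.45 log2 CPM, and the next ILCp library was at 8.04. Without these 4 libraries the EILP minus ALP differences were −9.22 log2 for Rag1, −7.93 for Rag2 and −4.87 for Dntt.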

How the results depend on the processing

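Dntt in EILP against ALP passed under every alternative run (35, from −5.25 to −4.54 log2). Genes past the threshold numbered 939, 598 and 1534 in EILP against ALP, ILCp against EILP and ILCp against ALP. They were 2551, 3047 and 3856 with no batch term, 1613, 1484 and 2362 with the replicate block (title number in place of batch), 3391, 8201 and 11612 with batch as a random effect, 266, 46 and 397 against a 2-fold change, and 620, 222 and 596 without ALP 6, EILP 7, ILCp 2 and ILCp 5. Batch 5 alone gave 397 for EILP against ALP. For ILCp against EILP and ILCp against ALP they were 183 and 772 with only the groups compared, 14 and 635 with only batches holding both, and 254 and 1012 without the Plzf-cre-GFP libraries, and limma without trend gave 280 for ILCp against EILP. Leaving out 1 library gave 696 to 964, 224 to 624 and 920 to 1584, with changes over 1.5 times without EILP 2, EILP 5, ILCp 1 or ILCp 2 in ILCp against EILP and without ILCp 2 in ILCp against ALP. Median centring moved the median gene by 0.215, −0.168 and 0.092 log2 and gave 804 higher and 395 lower, 279 and 390, and 813 and 584, where the main splits were 419 and 520, 327 and 271, and 718 and 816. The cause of these shifts was not tested.

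Rag1 in EILP against ALP lost its call with only the groups compared (−6.95, adjusted p = 0.0541), only batches with both (−6.95, 0.0900) and batch 5 alone (−3.75, 0.818), and Rag2 in batch 5 alone (−3.67, 0.238). In ILCp against EILP, Rag2 passed with batch as a random effect (1.88, 0.0283), Rag1 turned to −0.27 with a pseudocount of 1 CPM, and Dntt turned to 0.61 without the Plzf-cre-GFP libraries and 0.46 without ALP 6, EILP 7, ILCp 2 and ILCp 5 (−0.68 to 0.53 with 1 library left out). In ILCp against ALP, Rag1 passed with no batch term (−5.71, 0.00419), the replicate block (−5.82, 0.0102), batch as a random effect (−5.71, 5.09e-08), a pseudocount (−3.39, 0.0146), without the 4 libraries (−6.56, 0.0125) and in the exact permutation test (−6.85, p = 0.04167), and ranged from −6.50 to −4.75 with 1 library left out. Rag2 lost its call with only batches with both (−5.36, 0.0835), without the Plzf-cre-GFP libraries (−4.40, 0.181), without trend (−4.98, 0.0647) and against a 2-fold change (−4.98, 0.179), and ranged from −6.93 to −3.89 with 1 library left out. Dntt lost it with only the groups compared (−4.77, 0.0623) and only batches with both (−4.77, 0.136). The replicate block changed no other call of the 3 genes.

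Differences between members' changes, none of which passed, turned sign with no batch term (Rag1 minus Rag2 in EILP against ALP, −0.19, and Rag2 minus Dntt in ILCp against ALP, 0.067) and with a pseudocount (Rag1 minus Rag2 and Rag1 minus Dntt in ILCp against ALP, 1.00 and 0.84, and Rag1 minus Dntt in EILP against ALP, 1.70). With 1 library left out, Rag1 minus Rag2 ranged from −0.98 to 1.27, −3.07 to 3.27 and −3.42 to 1.18 in the 3 comparisons, and Rag2 minus Dntt in ILCp against ALP from −2.02 to 1.22. Of 1463 values of called named genes under alternatives, 1295 kept call and direction, 168 lost the call and 0 turned. Rag1 and Polm lie below the median level, so the level filter gave no value for them.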
